A study of Mus musculus with 12 samples.

Results

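The Armcx and Gprasp genes of the mouse X chromosome were followed through Xist induction in wild-type and ΔCdk8 ESCs. The 8 genes Armcx1, Armcx2, Armcx3, Armcx4, Armcx5, Armcx6, Gprasp1 and Gprasp2 were chosen by family name out of 25759 genes listed per library, 954 of them X-linked, and all 8 were found in every table. They were put together with their residual expression after induction, in both genotypes, already known. Values of induced against uninduced samples, and counts of genes past a threshold in those contrasts, are therefore a description and no test of the 8 genes. The comparison of the genotypes in uninduced conditions was not itself a ground for the choice, but its values are the denominators of residual expression.

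Armcx genes encode proteins with armadillo repeats, several of which sit by an N-terminal anchor on the outer membrane of mitochondria. Armcx3 (Alex3) is known to bind the Miro and Trak proteins that link mitochondria to kinesin motors. Gprasp proteins (GASPs) bind the cytoplasmic tails of G protein-coupled receptors and sort these receptors towards lysosomes after endocytosis. The family is found on the X chromosome of placental mammals and is thought to descend from an autosomal gene related to Armc10. Xist is the non-coding RNA that coats an X chromosome and initiates the repression of its genes.

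HATX3 ESCs are a diploid mouse embryonic stem cell line of haploid origin. In these cells Xist is transcribed from a doxycycline-inducible promoter through a transactivator at Rosa26. All 4 groups carry this system. They are uninduced wild type, wild type after 48 h of Xist expression, uninduced ΔCdk8 (genotype Cdk8-/-) and ΔCdk8 after 48 h, with 3 libraries each. Wild-type libraries are numbered 1, 2 and 3 and come from the parental polyclonal line, and the labels do not say whether an uninduced and an induced library of the same number share a culture. The ΔCdk8 libraries come from clones 8, 11 and 15, each 1 clone in which a small part of Cdk8 exon 1 with the start codon was deleted. The TPM of Cdk8 in uninduced conditions was 64.2, 69.4 and 74.2 for wild type, and 34.4, 56.8 and 85.3 for the libraries labelled clone 8, 11 and 15, so that the groups overlapped and the library labelled clone 15 was above every wild-type library. TPM is taken over the whole transcript and the deletion covers a small part of exon 1, so these levels cannot show whether the deletion is present. The genotype of the clones was not tested here. Clones 8, 11 and 15 stand throughout for the libraries so labelled. The level of Xist itself was not analysed here.

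Libraries held 22170087 to 60798578 gene reads, of which 1346 to 18111 fell on the 8 genes together. TPM is a level scaled to transcript length and to the library, so that genes can be compared. All 8 ESC markers examined, among them Pou5f1, Nanog and Sox2, were above 10 TPM in every library. Residual expression is the induced TPM divided by the uninduced TPM within a wild-type number or clone. In bulk RNA, a lower level in every cell and a loss of the RNA from a part of the cells cannot be told apart.

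The genes lay in 2 stretches of the X chromosome (GRCm38). Armcx4 (134686519 to 134696757), Armcx1 (134717963 to 134721917), Armcx6 (134748461 to 134751417), Armcx3 (134756595 to 134761455) and Armcx2 (134804145 to 134809221) filled 122.7 kb. After a gap of 933.5 kb, Armcx5 (135742733 to 135747322), Gprasp1 (135742733 to 135803474) and Gprasp2 (135839034 to 135844730) filled 102.0 kb. Armcx6 and Armcx2 are on the reverse strand and the others on the forward strand. In every one of the 8 genes the GENCODE M21 transcript with the longest reading frame had its whole coding sequence in 1 exon. The reading frames ranged from 301 codons in Armcx6 to 2356 codons in Armcx4. Identity between coding sequences was highest for Gprasp1 and Gprasp2 (68.5% of 2396 aligned bases), followed by Armcx1 and Armcx3 (67.3% of 1098 aligned bases). The longest identical run between coding sequences was 58 bases, in Gprasp1 and Gprasp2, which is shorter than the reads.

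Upstream sequences are shown because the 5 genes of the first stretch moved together after induction while those of the second stretch stood apart. Of the 8 genes, 7 had an entry among the RefSeq promoter windows of GRCm38.p6, each holding 250 bases before and 50 bases after the start. Armcx3 had none. The last 140 bases before the start and the 10 bases after it are printed 5′ to 3′ on the strand of the gene, with CACGTG and TGACGT in capitals.
Armcx4 (chrX:134686379-134686528, forward strand): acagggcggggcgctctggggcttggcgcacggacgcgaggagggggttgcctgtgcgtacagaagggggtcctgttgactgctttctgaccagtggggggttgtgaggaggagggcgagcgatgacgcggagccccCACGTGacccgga
Armcx1 (chrX:134717798-134717947, forward strand): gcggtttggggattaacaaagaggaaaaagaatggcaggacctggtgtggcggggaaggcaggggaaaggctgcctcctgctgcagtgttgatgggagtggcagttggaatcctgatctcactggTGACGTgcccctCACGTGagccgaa
Armcx6 (chrX:134751410-134751559, reverse strand): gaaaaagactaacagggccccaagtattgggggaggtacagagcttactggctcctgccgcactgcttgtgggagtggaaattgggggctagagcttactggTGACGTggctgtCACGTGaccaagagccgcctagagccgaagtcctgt
Armcx2 (chrX:134809212-134809361, reverse strand): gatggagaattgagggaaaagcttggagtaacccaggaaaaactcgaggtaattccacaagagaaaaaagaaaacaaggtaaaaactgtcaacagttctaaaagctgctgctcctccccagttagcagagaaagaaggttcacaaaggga
Gprasp1 and Armcx5 (chrX:135742552-135742701, forward strand): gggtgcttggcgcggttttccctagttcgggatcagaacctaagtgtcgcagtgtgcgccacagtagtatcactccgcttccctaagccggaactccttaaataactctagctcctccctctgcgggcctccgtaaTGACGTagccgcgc
Gprasp2 (chrX:135838894-135839043, forward strand): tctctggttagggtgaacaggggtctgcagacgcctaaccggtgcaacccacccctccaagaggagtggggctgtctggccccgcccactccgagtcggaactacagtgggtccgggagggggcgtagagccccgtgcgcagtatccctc

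CACGTG, the E-box read the same on both strands, occurred in the windows of Armcx4, Armcx1 and Armcx6. Over 32817 RefSeq windows of the same length it was found in 7.15%, and in 8.61% of 1220 windows on the X chromosome. TGACGT on either strand, the core of the cAMP response element, preceded it in Armcx1 and Armcx6, and was also present in the window that Gprasp1 and Armcx5 share. It was found in 7.51% of all windows. Neither motif was found in the windows of Armcx2 and Gprasp2. In all, 6 motifs were searched on both strands. ATTGG was found in the same 3 windows as CACGTG, but also in 37.4% of all windows and 45% of those on the X chromosome. GGGCGG was found in Armcx4 and Gprasp2 and in 35.6% of all windows, and TATAAA and GCCATNTT, in 13.6% and 6.04% of all windows, were found in none of the 7. The windows of Armcx1 and Armcx6 were 64.0% identical over 272 aligned bases. Pairs across the 2 stretches reached the same level, so this value is not particular to them. It was 64.2% over 232 bases for Armcx2 and Gprasp2, and 64.1% over 234 bases for Armcx1 and the window of Gprasp1 and Armcx5. The window shared by Gprasp1 and Armcx5 held 25 CpG dinucleotides and that of Armcx4 held 19, against 7 in Armcx1, 10 in Armcx6, 4 in Armcx2, 14 in Gprasp2 and a median of 7 over all windows. These motifs and counts were looked at after the sequences and the expression values were known, and they are a description of the windows only.

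In uninduced wild-type ESCs mean levels ran from 5.26 TPM for Armcx3 to 37.5 TPM for Armcx1. The order by mean TPM was Armcx1, Armcx2, Gprasp1, Armcx4, Armcx5, Gprasp2, Armcx6 and Armcx3. Of neighbours in this order, Gprasp1 and Armcx4 did not overlap, nor did Gprasp2 and Armcx6, and every other pair of neighbours overlapped in its 3 libraries. After induction the order changed. Gprasp1, Armcx5 and Gprasp2 came first in induced wild-type ESCs and Armcx6 came last, with overlap between neighbours only for Armcx4 and Armcx2. The 5 Armcx genes of the first stretch summed to 107.6±22.7 TPM (mean±s.d., n = 3) in uninduced and 5.43±0.802 TPM in induced wild-type ESCs, while Armcx5, Gprasp1 and Gprasp2 summed to 59.3±1.14 and 21.5±3.33 TPM. In ΔCdk8 ESCs the first sum was 98.0±27.0 TPM before and 21.3±7.49 TPM after induction, and the second was 64.5±8.25 and 39.3±6.41 TPM.

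**Figure D1:**
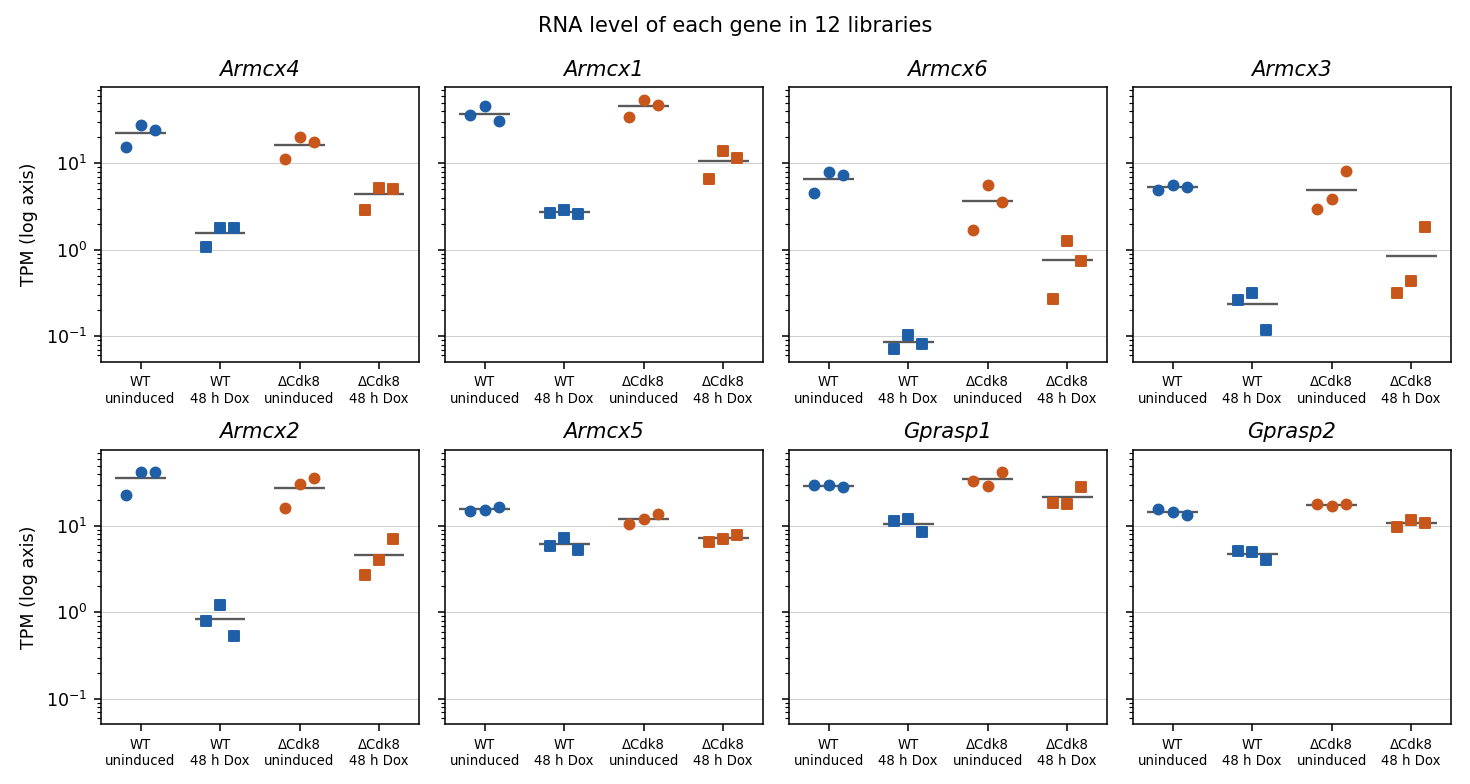
TPM of each gene (log axis) in the 12 libraries, with 1 panel per gene in chromosomal order. Points are libraries, circles uninduced and squares after 48 h with doxycycline, in blue for wild type and orange for ΔCdk8, and lines are means of 3 libraries. In the first 5 panels the induced wild-type libraries are the lowest group, at 0.0707 to 0.103 TPM for Armcx6, with an overlap with induced ΔCdk8 for Armcx3 alone, and in the last 3 panels the shift is smaller.

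The genotypes were compared in uninduced conditions to ask whether the genes differed before Xist was induced. Armcx6 was at 4.56, 7.85 and 7.39 TPM in wild-type libraries 1, 2 and 3 and at 1.67, 5.69 and 3.60 TPM in clones 8, 11 and 15, and the groups overlapped. Armcx4 was at 15.4, 27.6 and 24.6 TPM in wild type and at 11.3, 20.2 and 17.9 TPM in the clones. Wild-type library 1 and clone 8 were the lowest of their genotype for Armcx4, Armcx6, Armcx3 and Armcx2 alike. Armcx5 was at 14.8, 15.4 and 16.6 TPM in wild type and at 10.7, 11.9 and 13.8 TPM in the clones, without overlap. Gprasp2 was at 15.6, 14.5 and 13.4 TPM in wild type and at 17.9, 17.2 and 17.8 TPM in the clones, also without overlap and in the other direction. Such a separation in either direction was seen for 24.6% of the 411 X-linked genes and 23.5% of 12065 X-linked and autosomal genes with a mean of at least 1 TPM, so that 2 of 8 is near the background.

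A call required more than a 2-fold change and an adjusted p below 0.01, and none of these differences met both. The quasi-likelihood test of edgeR called 0 of the 8 genes, 0% of the 14646 genes tested and 0% of the 541 X-linked genes tested. At an unadjusted p under 0.05 there was 1 of the 8 genes, Armcx5, as were 2982 of 14646 genes and 109 of 541 X-linked genes. DESeq2's Wald test also called 0 of the 8. It called 122 genes as lower and 264 as higher in ΔCdk8, of which 9 and 7 were X-linked. With uniquely mapped reads 0 of the 8 were at an unadjusted p under 0.05, and Armcx5 was at −0.34 (standard error 0.49). The log2 fold change of ΔCdk8 over wild type was −0.98 for Armcx6 (standard error 0.51, adjusted p = 0.306 by edgeR), −0.59 for Armcx4 (standard error 0.31, adjusted p = 0.303) and −0.54 for Armcx2 (standard error 0.35, adjusted p = 0.387). It was −0.52 for Armcx5 (standard error 0.20, adjusted p = 0.219) and −0.24 for Armcx3 (standard error 0.38, adjusted p = 0.721). Armcx1, Gprasp1 and Gprasp2 had values of 0.15, 0.12 and 0.13, with standard errors of 0.25, 0.13 and 0.17. Single clones weighed on these values. Armcx6 was at −1.61 without clone 11 (adjusted p = 0.0606 by edgeR) and at −0.62 without clone 8, Armcx4 at −0.89 and −0.36, and Armcx2 at −0.73 and −0.26. The sign for Armcx1 turned to −0.11 without clone 11, and that for Armcx3 turned to 0.032 without clone 8. The median over the 8 genes was −0.38, against 0.026 over all genes tested. Over the fits that left out a library it ran from −0.57 without clone 15 to −0.11 without clone 8, and with unique reads it was −0.29. Summed levels of fibroblast markers (4 of 4 listed) were 8.66 to 17.4 TPM in wild type and 17.8 to 29.3 TPM in the clones, mostly from Thy1, and those of mesoderm markers (4 of 4 listed) 2.21 to 4.32 and 4.83 to 14.4 TPM, mostly from Eomes. After induction the same lists were at 5.54 to 14.8 against 18.9 to 32.3 TPM and at 1.51 to 3.83 against 5.57 to 8.96 TPM. Neural, primitive endoderm and trophoblast marker sums overlapped between the genotypes. Their part in the differences was not tested.

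**Figure D2:**
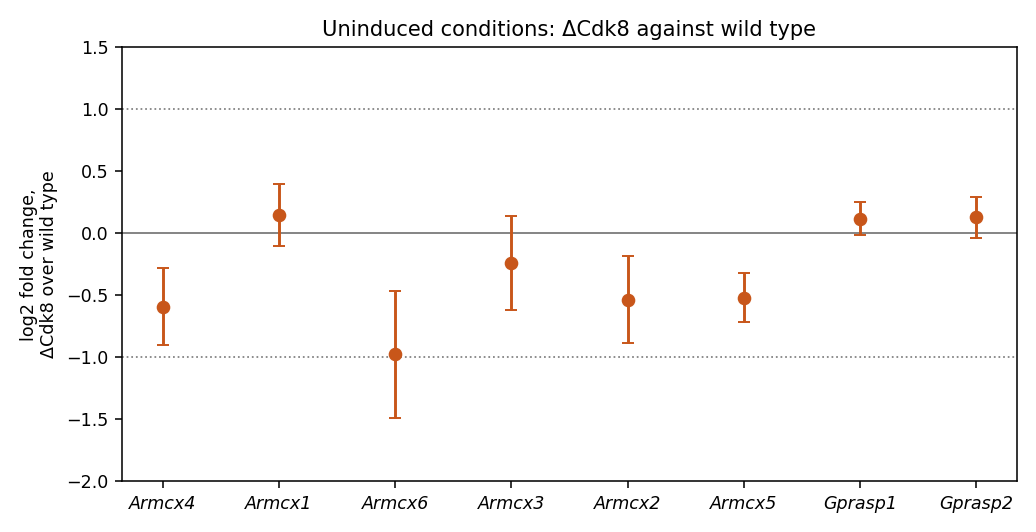
Log2 fold change of ΔCdk8 over wild type in uninduced conditions for the 8 genes in chromosomal order, from edgeR, with bars of 1 standard error. Dotted lines mark a fold change of 2, and the values run from −0.98 for Armcx6 to 0.15 for Armcx1, all between the dotted lines.

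Xist induction in wild-type ESCs asks how far each gene is repressed. Armcx6 fell to 0.0707, 0.103 and 0.0811 TPM in libraries 1, 2 and 3, which rests on 2, 2 and 3 gene reads against 128, 248 and 393 before induction. Its residual expression was 0.0132±0.00226 (mean±s.d., n = 3). From the gene reads, the 95% exact interval of the ratio was 0.00180 to 0.0553 in library 1 and 0.00222 to 0.0318 in library 3, which covers counting error only. Armcx6 has the shortest reading frame of the family here, and of 411 X-linked genes whose mean reached 1 TPM only 2 had a lower mean residual expression.

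Armcx2 went from 22.8, 42.1 and 42.3 TPM to 0.805, 1.2 and 0.537 TPM, a residual expression of 0.0255±0.0116. For Armcx3, whose protein takes part in mitochondrial transport, the TPM went from 4.87, 5.56 and 5.35 to 0.264, 0.32 and 0.118, with residual expression of 0.0447±0.0197 and 7 to 12 induced gene reads per library. Wild-type library 3 had the lowest residual value for Armcx2, Armcx3 and Armcx6 alike. Armcx4, the longest of the Armcx proteins, was at 1.07, 1.80 and 1.80 TPM after induction, and its residual expression of 0.0693±0.00379 varied least of the 5 genes relative to its mean. Armcx1, a mitochondrial protein studied in axon regeneration, went from 35.8, 45.5 and 31.2 TPM to 2.65, 2.92 and 2.56 TPM, a residual expression of 0.0734±0.00895. In each of these 5 genes all uninduced libraries were above all induced libraries.

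The 3 genes of the second stretch kept a larger part of their expression. Armcx5 was at 5.86, 7.22 and 5.21 TPM after induction (residual expression 0.393±0.0779), and Gprasp1, a receptor-sorting protein, went from 29.8, 29.6 and 28.0 TPM to 11.5, 12 and 8.52 TPM (0.364±0.0528). Gprasp2 was at 5.13, 5.06 and 4.06 TPM after induction (0.327±0.0227). The median X-linked gene, over 411 genes, had a residual expression of 0.323±0.0387, and the median over the 8 genes was 0.0714±0.00637. The lowest residual value among Armcx5, Gprasp1 and Gprasp2 was 0.303, and the highest among the 5 other genes was 0.0821. Ranked by log2 fold change among 480 X-linked genes tested, Armcx6 stood 4th, Armcx2 6th, Armcx3 13th, Armcx4 31st and Armcx1 35th, and the 3 others stood between 237th and 284th.

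In the edgeR fit the log2 fold changes were −6.26 for Armcx6 (standard error 0.42), −5.41 for Armcx2 (0.40), −4.52 for Armcx3 (0.40), −3.81 for Armcx4 (0.32) and −3.76 for Armcx1 (0.21). They were −1.58 for Gprasp2 (0.16), −1.36 for Gprasp1 (0.12) and −1.33 for Armcx5 (0.19). Of the 8 genes, 7 were past the threshold as lower, all but Armcx5, against 1.01% of 14006 genes and 27.7% of 480 X-linked genes tested. With the replicate number as a block all 8 were past it, against 2.48% of all genes and 52.3% of X-linked genes. Since the genes were selected on this contrast, nothing is read from these counts. The count without the block was 0 of the 8 without replicate 2 and 0 without replicate 3, where 0 of all 14397 and 14093 genes tested were past the threshold. With the block it was 8 without replicate 1, 3 without replicate 2 and 7 without replicate 3, where 727 of 14196, 42 of 14397 and 258 of 14093 genes were lower. With uniquely mapped reads it was 5, and 6 with the block as well. Armcx5 was then at −0.28 (standard error 0.53), Gprasp1 at −1.01 (0.15) and Gprasp2 at −1.74 (0.57), and without the block none of these 3 was past the threshold. The log2 fold changes stayed between −6.37 and −6.11 for Armcx6 and between −3.89 and −3.67 for Armcx1 in all fits that left out a replicate.

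**Figure D3:**
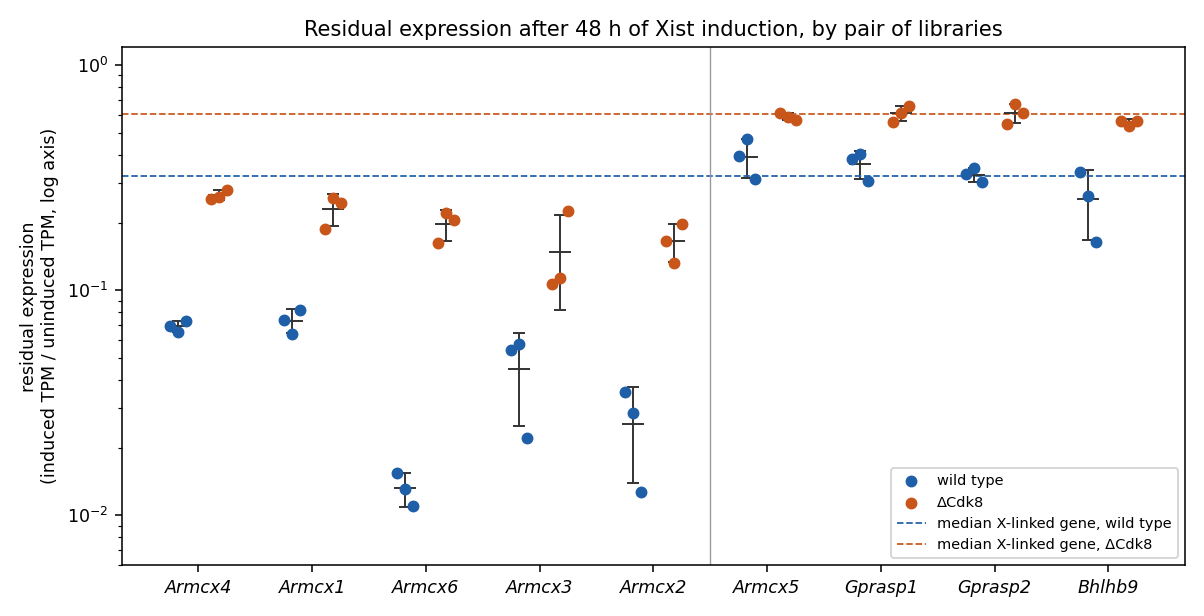
Residual expression (induced TPM over uninduced TPM, log axis) of the 8 genes and Bhlhb9, for wild-type numbers (blue) and ΔCdk8 clones (orange). Points are pairs of libraries, black bars the mean and s.d. of 3 pairs, dashed lines the median of 411 X-linked genes in each genotype, and the vertical line divides the 2 stretches. Armcx4, Armcx1, Armcx6, Armcx3 and Armcx2 lie below both dashed lines in both genotypes, and the other genes lie near the line of their genotype.

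The same genes were followed in ΔCdk8 ESCs, where the question is how much repression remains without intact Cdk8. Armcx6 was at 0.271, 1.26 and 0.739 TPM after induction in clones 8, 11 and 15, from 14, 35 and 17 gene reads, with a residual expression of 0.196±0.0308. Armcx2 went from 16.3, 30.2 and 35.7 TPM to 2.71, 4.0 and 7.06 TPM (0.165±0.0325). Armcx3 went from 2.93, 3.87 and 8.06 TPM to 0.313, 0.438 and 1.81 TPM (0.148±0.0665). The library labelled clone 15 had the highest Armcx3 level both before and after induction, and its residual value of 0.225 was the highest of the 3, against 0.107 and 0.113. Armcx4 was at 2.87, 5.25 and 5.01 TPM after induction (0.265±0.0133). Armcx1 went from 34.6, 54.4 and 47.6 TPM to 6.51, 14.0 and 11.6 TPM (0.230±0.0371). Clone 8 had the lowest induced level of all 5 genes, and it also had the lowest uninduced level of all 5.

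Gprasp1 went from 33.0, 28.9 and 42.2 TPM to 18.5, 17.8 and 27.9 TPM in the clones, a residual expression of 0.613±0.0494. Gprasp2 was at 9.84, 11.6 and 10.9 TPM after induction (0.612±0.0607) and Armcx5 at 6.54, 7.05 and 7.93 TPM (0.592±0.0201). The median X-linked gene had a residual expression of 0.604±0.0198 in the clones, and the median over the 8 genes was 0.247±0.0227. Only 2 of the 411 X-linked genes had a lower mean residual expression than Armcx3, and 24 had a lower one than Armcx4, the highest of the 5 genes of the first stretch. For Armcx5, Gprasp1 and Gprasp2 between 193 and 213 of the 411 genes were lower.

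The log2 fold changes in the clones were −2.59 for Armcx2 (standard error 0.43), −2.53 for Armcx3 (0.72), −2.29 for Armcx6 (0.76), −2.09 for Armcx1 (0.37) and −1.91 for Armcx4 (0.36), and between −0.73 and −0.66 for the other 3. Without a block, 0 of the 8 genes were past edgeR's threshold, against 0% of 14832 genes and 0% of 531 X-linked genes tested, and 8 of 8 were at an unadjusted p under 0.05 (6 of 8 with uniquely mapped reads), as were 392 of 14832 genes and 216 of 531 X-linked genes. DESeq2 called 3 of the 8, and 36 genes in all, 26 of them X-linked. With the clone as a block the 5 genes of the first stretch were past it, against 1.27% of all genes and 24.1% of X-linked genes, and their standard errors were 0.090 for Armcx4, 0.10 for Armcx1, 0.12 for Armcx2, 0.22 for Armcx3 and 0.27 for Armcx6. These counts, too, describe a contrast the genes were chosen by.

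Between the genotypes, each of the 8 genes kept a larger part of its expression in every clone than in every wild-type number, as did 72.7% of the 411 X-linked genes. The ratio of the mean residual values, ΔCdk8 over wild type, was 14.9 for Armcx6, 6.48 for Armcx2, 3.82 for Armcx4, 3.32 for Armcx3 and 3.13 for Armcx1. It was 1.87 for Gprasp2, 1.68 for Gprasp1 and 1.51 for Armcx5. The residual expression of Armcx6 in wild type rests on 2 or 3 reads per library, and Armcx2 in wild type and Armcx3 in both genotypes had larger s.d. relative to their means than Armcx6. In absolute terms the order differed, with the difference in residual expression running from 0.104 for Armcx3 to 0.285 for Gprasp2 and standing at 0.183 for Armcx6. In induced ESCs the TPM of Armcx3 and of Armcx5 overlapped between the genotypes, and that of the other 6 genes was higher in every clone than in every wild-type library. This was so for 57.2% of the 411 X-linked genes and 18.3% of the 12065 X-linked and autosomal genes.

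On the log2 scale the difference of induction, ΔCdk8 minus wild type, was 4.0 for Armcx6 (standard error 0.96), 2.83 for Armcx2 (0.60), 2.0 for Armcx3 (0.86), 1.93 for Armcx4 (0.50) and 1.70 for Armcx1 (0.44). It was 0.92 for Gprasp2 (0.24), 0.72 for Gprasp1 (0.20) and 0.62 for Armcx5 (0.28). In the edgeR fit without a block 0 of the 8 genes were past the threshold, against 0% of 15137 genes and 0% of 549 X-linked genes, and 8 of 8 were at an unadjusted p under 0.05 (5 of 8 with uniquely mapped reads), as were 587 of 15137 genes and 215 of 549 X-linked genes. DESeq2 called 1 of the 8, and 31 genes in all as less repressed, 26 of them X-linked. With numbers and clones as a block Armcx4, Armcx1, Armcx6 and Armcx2 were past it as less repressed in ΔCdk8, against 0.78% of all genes and 16.8% of X-linked genes. Armcx3 was not past it, with a difference of 1.86 (standard error 0.44) in that fit. Without clone 8, and likewise without clone 15, only Armcx4 of the 8 was past it, among 4 and 5 X-linked genes, while Armcx6 was at 4.01 and 3.91, Armcx2 at 2.78 and 2.71 and Armcx1 at 1.73 and 1.59. The genotypes share no libraries, but the genes were proposed with both contrasts in view.

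The reads behind the 2 stretches differed. Every exon read of Armcx1, Armcx2, Armcx3, Armcx4 and Armcx6 was counted as unique in all 12 libraries. Of exon reads, between 1.5% and 9.47% were unique for Armcx5, between 3.97% and 9.19% for Gprasp1 and between 1.99% and 10% for Gprasp2. In the GENCODE annotation all 4247 exonic bases of Armcx5 lie within the listed span of Gprasp1, all 4540 of Gprasp2 lie within that of Bhlhb9, and 61.5% of those of Gprasp1 lie within that of Bhlhb9. Shared exonic bases were fewer, 456 between Armcx5 and Gprasp1 (10.7% of Armcx5) and 376 between Gprasp2 and Bhlhb9 (8.28% of Gprasp2). How the reads that were not unique were divided between genes is not given in the sources used here, and TPM and residual expression of these 3 genes include them. The part of these overlaps in the low share of unique reads was not tested.

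From unique gene reads alone, Armcx5 kept 0.811±0.0971 of its expression in wild type and 0.613±0.153 in the clones, the other order than in TPM, but on only 5 to 39 reads per library. Gprasp1 had between 174 and 1283 unique gene reads, and kept 0.495±0.0703 in wild type and 0.665±0.0524 in the clones. Most of its unique gene reads were intron reads in every library. These were 352 of 461 in uninduced wild-type library 1 and 1047 of 1283 in uninduced clone 8. Its unique exon reads were not examined alone. Gprasp2 kept 0.311±0.210 in wild type and 0.74±0.201 in the clones, from 5 to 116 unique reads. The direction for Armcx5 therefore depended on which reads were counted.

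Introns gave a readout beside TPM for Gprasp1, the only one of the 8 genes with many intron reads. It is not separate from that of its unique gene reads, which were mostly intron reads. Intron reads made up 18.6% of its gene reads over the 12 libraries, against 0.310% for Armcx2 and 2.32% for Armcx6. Scaled to the gene reads of each library (RPM), its intron reads went from 11.6, 13.9 and 14.2 to 7.03, 5.46 and 6.47 in wild type, and from 19.4, 14.9 and 19.1 to 12.4, 9.12 and 14.7 in clones 8, 11 and 15. The intron signal that remained was 0.484±0.109 in wild type and 0.672±0.0824 in ΔCdk8, against 0.364 and 0.613 in TPM. The lowest clone was at 0.612 and the highest wild-type number at 0.604. With unique intron reads only, the genotypes overlapped, with 0.604 for the lowest clone and 0.619 for the highest wild-type number. Armcx5 lies within the span of Gprasp1, and its part in these intron reads was not tested.

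Neighbouring genes were examined because the 2 stretches differed. Of 36 other listed genes that start within 500 kb of the 8 genes or between them, 19 had a mean uninduced TPM of at least 1. Their residual expression had a median of 0.234 in wild type, between 0.0645 for Tceal5 and 0.545 for Rpl36a, a ribosomal protein gene. In the clones the median was 0.513, with a minimum of 0.403 for Arxes1. The values of Armcx4, Armcx1, Armcx6, Armcx3 and Armcx2 in the clones, 0.148 to 0.265, were all below this minimum. In wild type the mean of Tceal5 lay below Armcx4 and Armcx1, so that the 5 genes were not all outside the range of the neighbours there. Tceal5 was at 0.0645±0.112, with a mean uninduced TPM of 2.35. Its s.d. was larger than its mean, so that the lower end of this range is uncertain. In the clones those of Armcx5, Gprasp1 and Gprasp2 were within the range of the neighbours.

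Just before Armcx4 stood Hnrnph2, which encodes a splicing factor, with residual expression of 0.234±0.0410 in wild type and 0.464±0.0504 in the clones. Timm8a1, a chaperone of mitochondrial import, had 0.244±0.0509 and 0.507±0.0677. Past Gprasp2, Bex4 had 0.119±0.0495 in wild type and 0.478±0.0493 in the clones. With the block, 12 of the 21 neighbours tested were past the threshold as lower in wild type, against 52.3% of X-linked genes over the chromosome, and 5 of 23 in ΔCdk8 (Hnrnph2, Arxes1, Nxf3, Bex4 and Tceal8), against 24.1% of X-linked genes. The difference of induction was past it for 7 of 25, Timm8a1, Hnrnph2, Bhlhb9, Bex2, Bex4, Tceal8 and Bex3, against 16.8% of X-linked genes. Without the block the counts were 7 of 21 in wild type, 0 of 23 in ΔCdk8 and 0 of 25 for the difference. Of X-linked genes, 27.7%, 0% and 0% were past the threshold in those fits. The largest falls in wild type with the block were those of Nxf3, Tceal5 and Tceal7, none of them past the threshold. Their log2 fold changes were −4.49 (standard error 0.70), −4.35 (0.94) and −3.30 (0.74). These genes were low, with mean uninduced TPM of 0.957, 2.35 and 2.47.

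**Figure D4:**
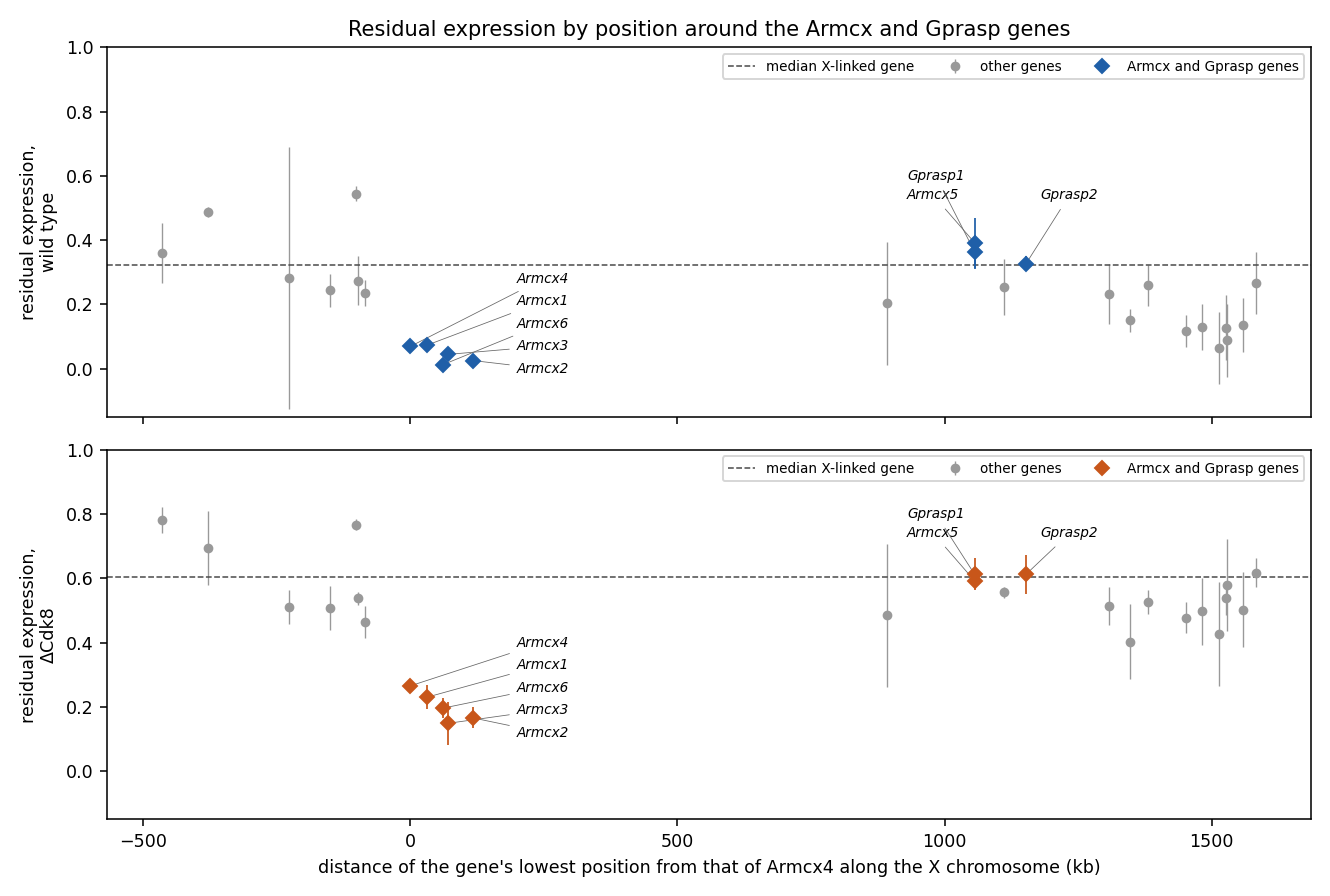
Residual expression of the 8 genes (diamonds) and of 19 other genes with a mean uninduced TPM of at least 1 (grey circles) by distance along the X chromosome in kb from Armcx4, in wild type (top) and ΔCdk8 (bottom). Points are means and bars the s.d. of 3 pairs of libraries, and the dashed line is the median of 411 X-linked genes. In ΔCdk8 the 5 Armcx genes at the left lie between 0.148 and 0.265, below all grey circles, which start at 0.403. In wild type the grey circle of Tceal5, at 0.0645 with an s.d. of 0.112, lies below Armcx4 and Armcx1.

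Bhlhb9, an armadillo-repeat relative that some annotations call Gprasp3, has a listed span (135797594 to 135891081) that starts within the second stretch and ends past Gprasp2. Its exon reads were all unique, which sets it apart from the genes around it. It went from 35.1, 42.4 and 36.3 TPM to 11.8, 11.2 and 5.95 TPM in wild type, a residual expression of 0.254±0.0865, and from 37.1, 43.0 and 51.6 TPM to 21.0, 23.0 and 29.2 TPM in the clones, 0.556±0.0180. Its value was thus nearer to those of Gprasp1 and Gprasp2 than to those of the first stretch in both genotypes. The promoter windows of Bhlhb9 and Gprasp2 were 92.4% identical over 291 aligned bases. Armc10, the autosomal relative on chromosome 5, stayed at 0.995±0.0503 in wild type and 0.964±0.0580 in the clones.

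The genes most like the 8 in residual expression were sought among 12009 genes by the root mean square difference of 6 log2 values, 3 wild-type numbers and 3 clones, from the median of the 8. The 5 nearest were Rragb, Tsx, Tro, Igsf1 and Ldoc1, all X-linked, with differences of 0.21, 0.24, 0.39, 0.42 and 0.45 on the log2 scale. Rragb, which encodes a Rag GTPase, had a residual expression of 0.0770 in wild type and 0.231 in the clones. The 8 genes themselves were at 0.11 for Armcx4 and Armcx1, the 2 genes nearest to their own median, and between 1.00 and 1.97 for the others.

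Genes that work with these families were taken as lists. Of 15 genes of mitochondrial transport and dynamics, among them the Miro genes Rhot1 and Rhot2, the Trak adaptors and the kinesin heavy chains, 0 were past the threshold in any comparison, by edgeR with or without a block or by DESeq2. At an unadjusted p under 0.05 edgeR gave 1 of the 15 between the uninduced genotypes, where 2982 of 14646 genes were, 4 on induction in wild type, where 2969 of 14006 were (9 with the block, where 5449 were), and 0 on induction in ΔCdk8, where 392 of 14832 were (2 with the block, where 3675 were). For the difference of induction it gave 0, where 587 of 15137 were, and 3 with the block, where 3436 were. Their median log2 fold change was −0.12 between the genotypes in uninduced conditions (0.026 over all genes), −0.027 on induction in wild type and 0.031 on induction in ΔCdk8. The value farthest from 0 was −0.70 for Rhot2 between the uninduced genotypes (standard error 0.32, adjusted p = 0.262 by edgeR). On induction in wild type it was −0.76 for Kif5c (standard error 0.18), and for the difference of induction 0.81, also for Kif5c (standard error 0.49). Of 17 genes of receptor sorting, 16 were tested, and 0 were past edgeR's threshold without a block, with 4 at an unadjusted p under 0.05 between the uninduced genotypes and 2 on induction in wild type, 0 on induction in ΔCdk8 and 1 for the difference. With the block these were 8 in wild type, 1 in ΔCdk8 and 5 for the difference. The same counts over all genes apply, and 4 of 16 is near the share of all genes in the uninduced comparison. With the block Arrb1, an arrestin that ends receptor signalling, was past it as lower on induction in wild type and as less lowered in ΔCdk8, among 2.48% and 0.78% of all genes. DESeq2 called 1 gene of the list as lower in wild type, where it called 440 of 14006 genes, and 0 in the other comparisons. The log2 fold change of Arrb1 in wild type was −1.15 (standard error 0.22) without the block. The list's median was −0.015 between uninduced genotypes and −0.075 on induction in wild type, against 0.026 and 0.030 over all genes.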

How the data were processed

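Polyadenylated RNA of 12 libraries (4 groups of 3) was sequenced with a stranded kit. The authors mapped and counted the reads in CLC Genomics Workbench on the Ensembl GRCm38 annotation, and deposited for each gene the total gene reads as a count, with unique, exon, intron and junction counts, and TPM values normalised by the authors to transcript length and library size. Deposited RPKM values and ratios of reads were not used. Groups were taken from the sample titles. The mutant libraries come from separate clones. Nothing states that the wild-type libraries came from separate cultures, so that their spread may be technical.

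Gene counts were fitted with edgeR 4.0.16 (R 4.3.3, TMM factors, filterByExpr at 10 counts per library and 15 in total, quasi-likelihood test), over only the libraries of each comparison. Calls needed a fold change above 2 and a Benjamini-Hochberg adjusted p under 0.01 over all genes tested. DESeq2 1.42.0, other scaling, filters and read classes, a replicate block and leaving out each replicate were alternatives. Scripts were tested on simulated counts. Residual expression used TPM, with at least 1 TPM in the mean where genes are counted over the chromosome. The log2 values for likeness had no pseudocount. A pseudocount of 0.1 TPM was used only in an alternative for the median residual expression of the chosen genes. Count intervals are exact 95% intervals and cover counting error only. Python 3.11.15, numpy 2.4.6, pandas 2.3.3, scipy 1.17.1 and Biopython 1.88 were used.

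Same-numbered libraries, paired by their titles, deviated together from their group means. The correlation over 15137 genes was 0.61, 0.45 and 0.42 for wild-type numbers and 0.79, 0.84 and 0.74 for clones 8, 11 and 15, where the pair is also the same clone. Genes named are the 8 chosen genes, the 5 most like them, their neighbours and relatives, and up to 3 genes per list with the largest changes. The members and lists were chosen with earlier results of these data known, and the motifs after the promoter sequences had been read. Promoter sequences are from RefSeq.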

Additional observations from a re-analysis of the deposited data

Results flagged for a closer look

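For 4 of the 8 genes the difference of Xist induction between the genotypes was past the threshold with wild-type numbers and clones as a block. The log2 difference of induction, ΔCdk8 minus wild type, was 3.93 for Armcx6, 2.84 for Armcx2, 1.93 for Armcx4 and 1.63 for Armcx1. In that fit 0.78% of all genes and 16.8% of X-linked genes were past the threshold as less repressed. The count fell from 4 to 1, Armcx4, without clone 8 and likewise without clone 15, where the calls over all X-linked genes fell from 92 to 4 and 5. The differences were then 4.01 and 3.91 for Armcx6, 2.78 and 2.71 for Armcx2, and 1.73 and 1.59 for Armcx1. The genes were chosen with this contrast in view, so that these values are a description. Without the block the difference passed the threshold for 0 of the 8 genes in edgeR, with 8 of 8 at an unadjusted p under 0.05 (5 of 8 with uniquely mapped reads, where Armcx5 reversed), as were 587 of 15137 genes and 215 of 549 X-linked genes. For Armcx6 the wild-type side rests on 2, 2 and 3 induced reads.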

How the results depend on the processing

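In uninduced conditions 0 of the 8 genes passed the threshold under every alternative, including each fit that left out a replicate (0 to 0), and the log2 fold change kept its direction in 110 of 112 single-gene values. When a replicate was left out it ran from −0.11 (without clone 11) to 0.33 for Armcx1, and from −0.70 to 0.032 (without clone 8) for Armcx3. It ran from −1.61 to −0.62 for Armcx6, −0.89 to −0.36 for Armcx4 and −0.78 to −0.26 for Armcx2. The count of genes lower in wild type, 7, was 8 with the replicate block, 5 with unique reads and 6 with both, and ranged from 0 to 8 when a replicate was left out, with 0 without replicate 2 and 0 without replicate 3, and was 3 in the blocked fit without replicate 2. In ΔCdk8 the count of 0 became 3 by DESeq2 and 5 with the replicate block, with unique reads and the block, and with the block when any clone was left out. The count for the difference of induction, 0, became 1 by DESeq2, 4 with the block and 4 with the block and unique reads, and ranged from 1 to 5 in blocked fits that left out a replicate. With unique reads the difference for Armcx5 reversed to −0.39, and to −0.35 with the block as well. Residual expression over the 8 genes was 0.0714 in wild type (0.0683 to 0.0747 when a replicate was left out) and 0.0447 over the 5 genes whose exon reads were all unique. In ΔCdk8 it was 0.247 (0.240 to 0.261), 0.204 over those 5 genes and 0.275 with no replicate block, from the mean uninduced level. The blocked fits that left out a replicate or used unique reads, and the 5-gene value, were chosen after seeing the data. The cause of these changes was not tested. Armcx6 and Armcx3 are limited by depth, with 2 to 12 induced reads per wild-type library.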
